A study of Mus musculus with 9 samples.

Results

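Pitx1, Tbx4, Isl1 and Hoxc10 are the genes by which a hindlimb bud is told apart from a forelimb bud, and their surroundings were examined for HOXA13 and HOXD13 peaks in distal forelimb cells. The members were the peaks whose summit fell in the gene body or 150 kb either side of Pitx1, Tbx4 or Isl1, or in the gene body and 10 kb either side of Hoxc10, which lies among other Hox genes. A summit is the base of highest coverage inside a called interval. Over all 9 lists 545 of 632469 intervals had such a summit, 189 around Pitx1, 269 around Tbx4, 67 around Isl1 and 20 around Hoxc10.

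The data are lists of CUT&RUN peaks, 1 per library. In CUT&RUN an antibody brings micrococcal nuclease to a DNA-bound protein in permeabilised cells, and the fragments cut free are sequenced. All libraries came from distal forelimbs of B6CBAF1 mouse embryos, with 3 wild type (wt) libraries for HOXA13 and 3 for HOXD13 at E12.5. The line called II1TDOM 542 is represented by 2 libraries for HOXA13 at E12.5 and, for HOXD13, by 1 whose title says E11.5. Embryos of line 542 are described in the study as homozygous for an extra copy of II1, a digit enhancer of the HoxD locus, placed with a reporter gene in the neighbouring domain on chromosome 2. Line 542 is a single line, its reads were mapped to a genome that includes the insert, and it has no HOXD13 library at E12.5. Genotype therefore cannot be told apart from mapping genome, nor from stage in the HOXD13 library. The labels describe HOXD13 replicate 3 as a second analysis of an earlier sample, and the methods describe tissue pooled from several embryos per library. P-values below measure the spread between such pools. Lists held 23939 to 117719 intervals and came from 36.9 to 65.5 M (mega) read ends, and how far presence in a list depends on depth was not tested. Peak lists carry no RNA levels, and the tissue label could not be checked against marker genes.

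Pitx1 is a homeodomain transcription factor made in the hindlimb bud and not in the forelimb bud. In the hindlimb it acts upstream of the T-box factor Tbx4. Isl1 is a LIM homeodomain factor needed to start the hindlimb bud, and Hoxc10 is a HoxC gene of the hindlimb level. Tbx5 is the forelimb counterpart of Tbx4, while HOXA13 and HOXD13 are homeodomain factors that pattern the digits of both limb pairs.

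All 4 genes had at least 1 interval in each of the 9 lists. This is common: 83.0% of 21728 protein-coding genes had a summit in the gene body and 150 kb either side in all 6 wt lists, and 41.8% had one in the gene body and 10 kb either side. The genes differed in how many intervals they had and in how many sites recurred. Intervals of different lists that overlapped by at least 1 bp were joined into 143 sites, of which 93 were called in any wt list and 15 in all 6 wt lists. These 15 are 16.1% of the 93, beside 10.5% of 122950 sites outside chromosome 2. Pitx1 had 7 of the 15, Tbx4 had 5, Isl1 had 2 and Hoxc10 had 1. As shares of their own sites in any wt list these were 20.6% of 34, 10.6% of 47, 22.2% of 9 and 33.3% of 3. Tbx4 was thus near the share over all sites, and the Isl1 and Hoxc10 shares rest on few sites. The order of Pitx1 and Tbx4 depends on joining. With summits joined within 200 bp Pitx1 had 1 and Tbx4 3, and with intervals sharing 50% of both, 0 and 1. The count depends on how sites are joined and on the threshold, since it was 6 when summits were joined within 200 bp and 2 at a fold enrichment of at least 5.

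The sequences around the first 2 sites of each gene, by number of lists and then rank of fold enrichment, are shown here because some of them carry the motif that the HOX13 factors prefer. They span the median summit over lists and 50 bases either side, in mm10 (GRCm38). Capitals mark a match to the consensus, spelled CCNATAAA, CCNGTAAA, CTNATAAA or CTNGTAAA on either strand.
Pitx1, 27689 bp upstream (chr13:55859064-55859164, plus strand): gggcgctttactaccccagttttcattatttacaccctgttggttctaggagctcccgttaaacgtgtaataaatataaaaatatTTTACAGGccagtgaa
Pitx1, 121586 bp downstream (chr13:55709789-55709889, plus strand): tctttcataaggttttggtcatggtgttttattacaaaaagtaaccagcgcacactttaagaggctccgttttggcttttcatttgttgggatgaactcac
Tbx4, 146671 bp upstream (chr11:85739701-85739801, plus strand): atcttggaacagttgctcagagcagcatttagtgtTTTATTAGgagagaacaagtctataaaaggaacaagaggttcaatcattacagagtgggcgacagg
Tbx4, 129576 bp downstream (chr11:86026291-86026391, plus strand): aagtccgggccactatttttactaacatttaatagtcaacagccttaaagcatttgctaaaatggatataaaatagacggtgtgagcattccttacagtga
Isl1, 94607 bp downstream (chr13:116214765-116214865, plus strand): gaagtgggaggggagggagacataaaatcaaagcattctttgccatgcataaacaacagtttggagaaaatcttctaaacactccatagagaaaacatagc
Isl1, 28595 bp upstream (chr13:116338234-116338334, plus strand): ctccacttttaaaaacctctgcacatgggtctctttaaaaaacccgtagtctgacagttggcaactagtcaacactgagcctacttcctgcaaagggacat
Hoxc10, 6738 bp upstream (chr15:102960008-102960108, plus strand): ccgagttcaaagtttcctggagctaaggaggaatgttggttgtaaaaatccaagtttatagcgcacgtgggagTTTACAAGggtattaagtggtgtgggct
Hoxc10, 13680 bp downstream (chr15:102980426-102980526, plus strand): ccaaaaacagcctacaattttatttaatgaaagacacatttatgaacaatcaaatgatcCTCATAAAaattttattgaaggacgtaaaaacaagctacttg

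The match lay 39 bases from the median summit at the upstream Pitx1 site, 11 bases at the upstream Tbx4 site, 27 bases at the upstream and 13 bases at the downstream Hoxc10 site. The downstream windows of Pitx1 and Tbx4 and both Isl1 windows held none. Among the 15 sites called in all 6 wt lists 6 had a match in this window (40.0%), beside 26.9% of all 12895 such sites. Of the 78 other wt sites around the 4 genes 16 had one (20.5%), beside 16.3% of all other wt sites. Within every library the share of main summits with a match was higher around the 4 genes than among the searched intervals of the list. Not all intervals were searched, 53023 of 57367 in wt HOXA13 replicate 3. The gap was lowest in that library, 9 of 45 intervals against 17.9% of the 53023. The sites of different lists are mostly the same places, so these shares are not independent of each other.

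Around Pitx1 the wt HOXA13 lists held 25, 19 and 17 intervals in replicates 1, 2 and 3, and the wt HOXD13 lists held 8, 25 and 13. The 542 lists held 27 and 25 for HOXA13 and 30 for HOXD13. The antibodies overlap on this raw scale, and the shortest list, HOXD13 replicate 1, is the lowest. Per 100 kb of window the 6 wt libraries averaged 5.73 ± 2.15 intervals (SD, n = 6), which placed Pitx1 between the 87.6th and the 96.6th percentile of protein-coding genes.

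Tbx4 had the highest mean density of the 3 genes with wide windows, although Pitx1 was higher in wt HOXD13 replicate 3 (4.18 against 3.64 intervals per 100 kb) and among the top 20000 intervals (2.25 against 2.22). Its wt HOXA13 lists held 38, 27 and 22 intervals, its wt HOXD13 lists 10, 35 and 12, and its 542 lists 41 and 36 for HOXA13 and 48 for HOXD13. The wt density was 7.27 ± 3.50 intervals per 100 kb (SD, n = 6), between the 92.5th and the 99.7th percentile. The Tbx4 window also holds Tbx2, a T-box gene active in limb margins, and 22 of its 68 sites lay closer to the start of Tbx2 than to any other start. One of these 22 was called in all 6 wt lists, as were 4 of the 37 sites nearest to Tbx4.

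Isl1 was sparsely called. Its wt HOXA13 lists held 8, 8 and 3 intervals, its wt HOXD13 lists 2, 8 and 2, and its 542 lists 13 and 8 for HOXA13 and 15 for HOXD13. At 1.66 ± 1.0 intervals per 100 kb (SD, n = 6) it stood between the 21.7th and the 42.1st percentile in wt libraries, below the median gene in all 6.

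In the smaller Hoxc10 window each wt HOXD13 list held 1 interval and the wt HOXA13 lists held 2, 2 and 3. The 542 lists held 3 and 3 for HOXA13 and 4 for HOXD13. With so few intervals the density of 6.65 ± 3.27 per 100 kb (SD, n = 6) moved between the 45.3rd and the 97.9th percentile of genes with 10 kb flanks.

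**Figure D1:**
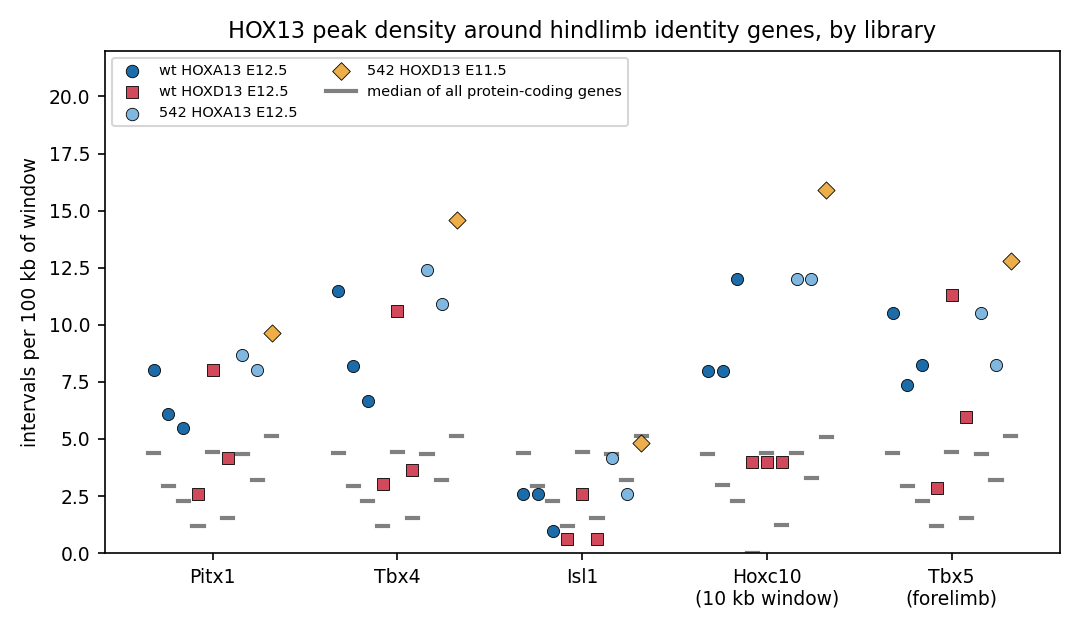
Intervals per 100 kb of window (vertical axis) at Pitx1, Tbx4, Isl1, Hoxc10 and the forelimb gene Tbx5 in each of the 9 libraries, coloured by genotype, antibody and stage; grey bars give the median of all protein-coding genes in the same library on the same flank. The Pitx1 and Tbx4 points lie above their grey bars in every library, and the 6 wt Isl1 points lie below theirs.

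Scaled by list length, the 4 windows together held 8.4, 9.55 and 7.84 intervals per 10000 of the list in the wt HOXA13 libraries and 8.77, 8.98 and 7.45 in the wt HOXD13 libraries. The 542 values were 8.48 and 9.68 for HOXA13 and 8.24 for HOXD13. The groups overlap, so the longer lists held more intervals around these genes in about the proportion in which they held more everywhere.

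No difference between antibodies or genotypes in these scaled counts passed a test. HOXA13 minus HOXD13 was -0.325 intervals per 10000 at Pitx1 (means 3.03 and 3.35), with p = 0.1 in the two-sided exact permutation test, the smallest that 3 against 3 libraries allow, and 0.3 after Benjamini-Hochberg adjustment over 9 tests. At Pitx1 the 3 HOXA13 values all lay below the 3 HOXD13 values. At Tbx4 the difference was 0.295 (exact permutation p = 0.6, adjusted 0.675; 0.25 with 3 pairs of same-numbered libraries, HOXA13 being higher in each), at Isl1 0.133 (exact permutation p = 0.7, adjusted 0.7) and at Hoxc10 0.0934 (exact permutation p = 0.5, adjusted 0.675). For HOXA13 over the 4 windows, wt minus 542 was -0.484 intervals per 10000 (means 8.60 and 9.08, n = 3 and 2), with p = 0.5 in the exact permutation test and 0.675 adjusted. These tests could not reach 0.05 at this number of libraries. The signs at Tbx4, Isl1, Hoxc10 and between genotypes depended on single libraries or on the threshold, and the sign at Pitx1 on the threshold.

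The forelimb gene Tbx5 serves as the reference for a gene that marks this limb type. Its wt HOXA13 lists held 37, 26 and 29 intervals and its wt HOXD13 lists 10, 40 and 21, a mean of 7.70 ± 3.09 per 100 kb (SD, n = 6). That placed Tbx5 between the 91.0th and the 99.7th percentile of protein-coding genes. Most genes lie below this reference, whatever their limb type. Isl1 was lower in 6 of 6 wt libraries, with a mean difference of -6.05 ± 2.42 per 100 kb (SD of the difference; p = 0.0312 by two-sided exact permutation of signs, which for 6 libraries cannot go lower; adjusted 0.141). Pitx1 was lower in 6 of 6 libraries, with a mean difference of -1.97 ± 1.1 (exact sign-flip permutation p = 0.0312, adjusted 0.141). Neither passed after adjustment, and with same-numbered libraries as 3 pairs both gave p = 0.25 in the exact permutation test, the smallest that 3 pairs allow. The Pitx1 difference depended on the window, at -0.376 (exact permutation p = 0.188) with 300 kb and -4.27 with 50 kb either side. Tbx4 was lower than Tbx5 in 3 wt libraries and higher in 3, with a mean difference of -0.426 ± 1.34 per 100 kb (exact sign-flip permutation p = 0.5, adjusted 0.675). Hoxc10 was likewise lower in 3 and higher in 3, by -1.07 ± 3.83 (exact sign-flip permutation p = 0.562, adjusted 0.675), on windows of different width.

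Most recurrent sites, like most sites of the windows, lay over 50 kb from the body of the member gene whose window held them. None of the 9 sites inside the gene bodies of the 4 genes was called in all 6 wt lists. Of the 15 that were, 11 lay between 50 and 150 kb from the member gene's body (84 of all 143 sites did). Another 3 lay between 10 and 50 kb and 1, at Hoxc10, within 10 kb. Other genes were not counted in these distances. By annotation over all genes 9 of the 15 and 67 of all 143 were intergenic. In introns of any gene lay 6 of the 15, all in genes other than the 4, and 72 of all 143. The window fixed in the definition limits this view, because with 300 kb either side (20 kb at Hoxc10) 28 sites were called in all 6 wt lists, and with 50 kb (5 kb) 3.

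**Figure D2:**
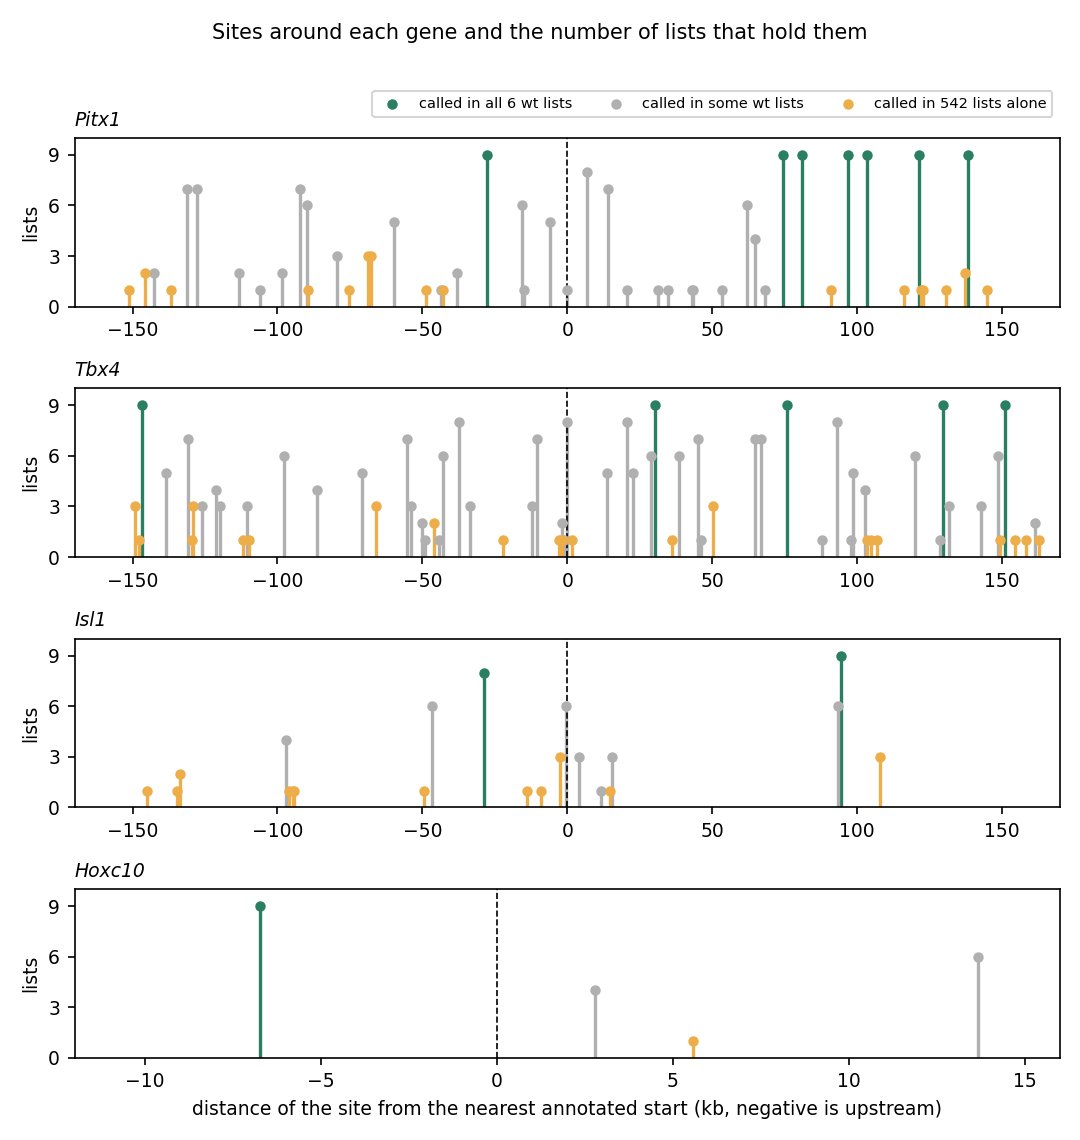
Each vertical line is 1 site, placed by its distance in kb from the nearest annotated start of the gene (horizontal axis, negative is upstream, dashed line at the start), and its height is the number of the 9 lists that hold it. Sites called in all 6 wt lists (green) are 7, 5, 2 and 1 from the top panel down, and the Isl1 panel is the emptiest of the 3 wide windows.

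At the promoters, taken as 1 kb either side of an annotated start, none of the 4 genes was called in all 6 wt lists, as 19.8% of protein-coding genes were. The Tbx4 promoter came closest. Its site (chr11:85896179-85897198, in an intron of the longer Tbx4 transcripts) was called in 5 wt lists and 8 lists in all, missing from wt HOXD13 replicate 3. Fold enrichment is the deposited ratio of coverage to local background, with 1 added to both. At this site it was 3.19, 3.56 and 2.25 in the wt HOXA13 lists and 3.51 and 5.43 in HOXD13 replicates 1 and 2. In line 542 it was 5.62 and 5.01 in the HOXA13 lists and 4.0 in the HOXD13 list. These are ordinary values, since 17.2% to 97.9% of the intervals of the same lists were higher.

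The RefSeq promoter of Tbx4 (GRCm38.p6) is printed because this site covers it and because it holds a consensus match, shown in capitals. Of the 4 genes 2 matched an entry in the RefSeq table, and 10.3% of its 32851 promoters held a match. The capital letters also contain TATAA, the core of a TATA box, so this match overlaps another motif. The RefSeq promoter of Isl1 held no match.
Tbx4 promoter (chr11:85896515-85896814, plus strand): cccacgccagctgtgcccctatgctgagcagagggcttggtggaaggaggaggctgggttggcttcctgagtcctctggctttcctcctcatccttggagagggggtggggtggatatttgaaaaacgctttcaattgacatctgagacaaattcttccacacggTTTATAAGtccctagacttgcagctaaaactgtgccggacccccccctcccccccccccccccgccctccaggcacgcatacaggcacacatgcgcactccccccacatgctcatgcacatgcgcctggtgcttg

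The Isl1 promoter site (chr13:116309557-116310897) was called in all 3 wt HOXA13 lists, with fold enrichments of 3.17, 3.06 and 2.22, and in HOXD13 replicate 2 at 3.29. It was also in 542 HOXA13 replicate 1 at 3.16 and in the 542 HOXD13 list at 2.60. It was thus weak wherever it was called, and its main summits spread over 1158 bp. At the start of Pitx1 a single list, wt HOXD13 replicate 2, held an interval, with a fold enrichment of 2.01 that 99.5% of its intervals exceeded. No list had a summit within 1 kb of a Hoxc10 start.

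The strongest Pitx1 site lay 27689 bp upstream of the start of Pitx1 in the basic annotation (chr13:55857967-55859648), in an intron of Gm47071, an antisense transcript that runs across the locus. Its fold enrichment was 18.8, 16.1 and 6.02 in the wt HOXA13 lists, 7.08, 9.56 and 4.59 in the wt HOXD13 lists, 17.8 and 17.2 in the 542 HOXA13 lists and 14.1 in the 542 HOXD13 list. In wt HOXA13 replicate 1 only 0.0633% of all intervals were higher, and in wt HOXD13 replicate 3 it was 18.3%. By fold enrichment replicate 3 is the lowest of the 3 replicates for both antibodies. Main summits of the 9 lists fell within 46 bp of each other.

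As a pileup, the highest number of overlapping read ends recovered from the deposited values, this site gave 484, 263 and 167 read ends in the wt HOXA13 libraries and 46, 156 and 80 in the wt HOXD13 libraries. Exact Poisson 95% intervals ran from 442 to 529 for the highest and from 33.7 to 61.4 for the lowest, and cover counting error only. Per M read ends of the library this was 6.03 ± 2.54 for HOXA13 and 1.99 ± 0.724 for HOXD13 (SD, n = 3 each), and the lowest HOXA13 library (3.75) was above the highest HOXD13 library (2.61). The antibodies differ in this way at many sites: 17.6% of all sites in all 6 wt lists were higher in every HOXA13 than in every HOXD13 library, and 0.574% the other way round. Of the 15 sites around the 4 genes 4 were higher in every HOXA13 library and 0 in every HOXD13 library.

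The other 6 recurrent Pitx1 sites lay 74563 to 138340 bp downstream of the Pitx1 start, closer to the starts of Txndc15, Pcbd2, Catsper3 or B230219D22Rik. By median summit, a site lay 39 bp from the B230219D22Rik start and a further site 591 bp from a Pcbd2 start. Both distances fall within the 1 kb taken here as a promoter, so these are promoter sites of other genes. The strongest of the 6 (chr13:55709519-55710436, 4811 bp from the start of Txndc15) had fold enrichments of 15.6, 13.4 and 5.69 in the wt HOXA13 lists and 8.57, 12.8 and 5.44 in the wt HOXD13 lists. In line 542 it was 11.4 in HOXA13 replicate 2, slightly higher in replicate 1 and 3.90 in the HOXD13 list. This was the leading site of the Pitx1 window in all 3 wt HOXD13 lists, and the upstream site led in the other 6 lists. Another (chr13:55749717-55750926, in an intron of Pcbd2) ranged from 3.22 to 8.90.

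At Tbx4 the site called in most lists at the highest rank (chr11:85739157-85740504) lay in an intron of Bcas3, 146671 bp upstream of the nearest Tbx4 start and 92800 bp from the start of Tbx2. Its fold enrichment was 11, 8.95 and 6.15 in the wt HOXA13 lists, 3.58, 7.0 and 5.33 in the wt HOXD13 lists, 11.1 and 10.8 in the 542 HOXA13 lists and 7.30 in the 542 HOXD13 list. The pileup was 3.89 ± 1.89 read ends per M for wt HOXA13 and 1.46 ± 0.778 for wt HOXD13 (SD, n = 3 each), again without overlap between the antibodies (lowest 2.54, highest 2.26). Its main summits lay within 38 bp.

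Downstream of Tbx4, the site at 129576 bp (chr11:86025824-86027307) ranged from 3.80 to 9.64 in fold enrichment over the 9 lists. The site at 75726 bp (chr11:85971937-85972773) was higher in HOXA13, at 1.24 ± 0.0609 read ends per M against 0.664 ± 0.107 for HOXD13 (SD, n = 3 each, no overlap). A site at 30147 bp (chr11:85926328-85927425), named here for its summits after its values were seen, was called in all 9 lists with summits within 53 bp. It gave 2.71 ± 1.56 read ends per M for wt HOXA13 and 1.29 ± 0.677 for wt HOXD13 (SD, n = 3 each), and the antibodies overlapped. No single site led the Tbx4 window in all lists, since 4 different sites held the highest fold enrichment in at least 1 list. The one that led in most, 5 lists, lay 93071 bp downstream (chr11:85989064-85990441, named after its values were seen), with 12.3, 9.62 and 3.47 in the wt HOXA13 lists and 5.20 and 8.53 in HOXD13 replicates 1 and 2. It was not called in wt HOXD13 replicate 3 and so is not among the 15. In the 542 HOXD13 list of E11.5 the lead was held by a site 10272 bp upstream of Tbx4 (chr11:85875603-85876796, named likewise), at 12.9 there and at 2.92 to 6.66 in the 4 wt lists that held it.

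At Isl1 the strongest wt site lay 28595 bp upstream (chr13:116337593-116338828) in sequence without an annotated gene. Fold enrichment was 6.66, 6.63 and 4.76 in the wt HOXA13 lists, 5.28, 5.27 and 4.25 in the wt HOXD13 lists, and 4.47 and 6.03 in the 542 HOXA13 lists. It led the window in all 6 wt lists and was the one of the 15 sites missing from the 542 HOXD13 list of E11.5, the longest of the 9 lists. Pileup was nearly even between antibodies, 0.795 ± 0.0472 read ends per M for HOXA13 and 0.707 ± 0.0756 for HOXD13 (SD, n = 3 each), and the ranges overlapped.

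The site found in all 9 lists at Isl1 lay 94607 bp downstream (chr13:116214114-116215338) and was weaker, from 2.36 to 6.15. Its main summits were spread over 638 bp, so the lists did not mark a single point there. A site 46678 bp upstream (chr13:116355921-116356606) was in 6 lists, 3 of them wt.

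Between Hoxc11 and Hoxc10, 6738 bp upstream of the Hoxc10 start and 5631 bp past the Hoxc11 start, lay the most sharply placed of the sites called in all 9 lists (chr15:102959578-102960895). Fold enrichment was 15.6, 14.1 and 9.18 in the wt HOXA13 lists, 9.92, 12.1 and 7.10 in the wt HOXD13 lists, 14.6 and 15.6 in the 542 HOXA13 lists and 11.8 in the 542 HOXD13 list. It led its window in all 9 lists, its main summits fell within 10 bp, and between 0.314% and 1.89% of the intervals of any list were higher. It was the one wt HOXD13 interval of the window in each of the 3 wt HOXD13 lists. Because the windows of neighbouring HoxC genes overlap, the same site is also the only wt interval of the Hoxc11 window.

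Pileup at this site was 598, 292 and 226 read ends in the wt HOXA13 libraries and 78, 291 and 92 in the wt HOXD13 libraries. That is 7.37 ± 3.05 per M for HOXA13 and 3.13 ± 1.52 for HOXD13 (SD, n = 3 each), with the lowest HOXA13 library (5.07) above the highest HOXD13 library (4.86). The 542 HOXA13 libraries reached 18.5 and 16.4 per M, above all 3 wt HOXA13 libraries, while their fold enrichment of 14.6 and 15.6 lay inside or at the top of the wt range. The local background recovered with it was 1.26 and 1.03 per M in the 542 HOXA13 libraries and 0.675, 0.420 and 0.533 in the wt ones. Such a rise in 542 was widespread: 33.4% of 26121 sites in all 5 HOXA13 lists of E12.5 were higher in both 542 libraries than in every wt library, and 2.82% were lower. Around the 4 genes 12 of 31 such sites were higher and 1 was lower.

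**Figure D3:**
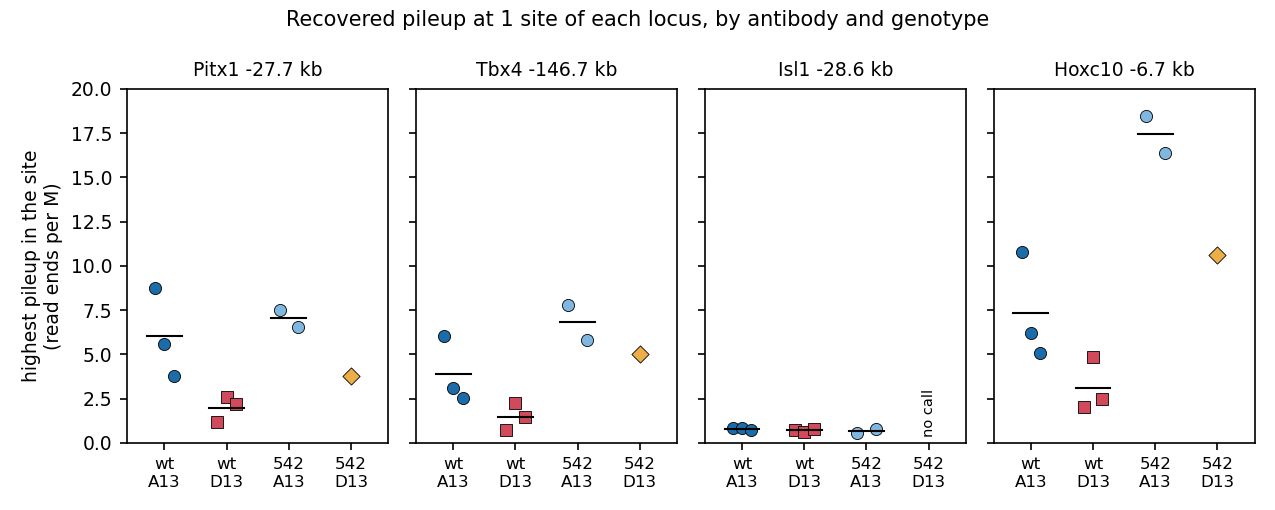
Highest recovered pileup in read ends per M (vertical axis) at 1 site of each gene, by genotype and antibody; each point is 1 library and horizontal bars are means of groups with more than 1 library. HOXA13 points lie above HOXD13 points in wt at Pitx1, Tbx4 and Hoxc10 and overlap at Isl1, where the 542 HOXD13 list had no call.

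**Figure D4:**
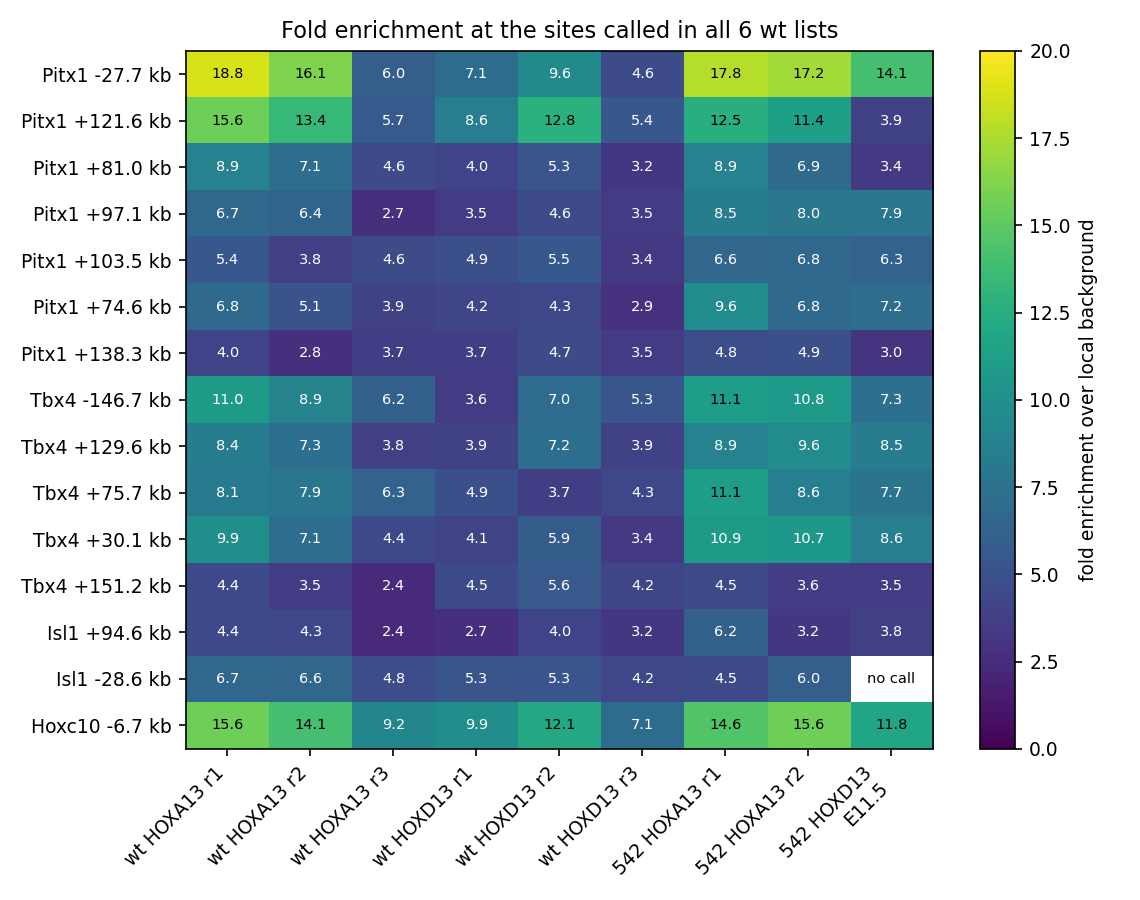
Deposited fold enrichment (colour and printed value) at the 15 sites called in all 6 wt lists (rows, named by gene and distance in kb from its nearest start) in the 9 libraries (columns). The first 2 Pitx1 rows and the Hoxc10 row reach 15.6 or more in wt HOXA13 replicate 1, and the Isl1 rows stay between 2.36 and 6.66.

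Of the 93 sites in any wt list, 81 were in at least 1 HOXA13 list, 66 in at least 1 HOXD13 list and 54 in both. Fewer were in every wt list of 1 antibody and in none of the other. In wt 4 sites around these genes were in all 3 HOXA13 lists and no HOXD13 list (1.37% of all wt sites are), and 0 in all 3 HOXD13 and no HOXA13 list (0.0285% of all). Around Hoxc10 this was the site in an intron of Hoxc9 and of the long Hoxc5 transcript (chr15:102979943-102980838), with fold enrichments of 3.63, 3.36 and 4.87 in wt HOXA13. The 542 lists also held it, at 5.56 and 4.97 for HOXA13 and 2.87 for HOXD13, so in 542 both antibodies called it. Its main summits lay within 38 bp.

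The other 3 sites in all 3 wt HOXA13 lists and no wt HOXD13 list were weaker or less sharply placed. They lay in an intron of Pcbd2 62016 bp downstream of the Pitx1 start (chr13:55769268-55769906), in an intron of Gm47071 59616 bp upstream of Pitx1 (chr13:55890699-55891224) and 22563 bp downstream of a Tbx4 start (chr11:85918922-85919722). Inside Hoxc10 itself the single intronic site (chr15:102969157-102969921) was called in wt HOXA13 replicate 3 at 2.61 and in all 3 lists of 542, at 4.02, 3.86 and 2.52. No wt HOXD13 list held an interval in the Hoxc10 gene body.

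In the reverse direction, 8 of the 143 sites were in all 3 lists of 542 and in no wt list, beside 2.26% of 187006 sites in any list. Tbx4 had 4 of them, Pitx1 2, Isl1 2 and Hoxc10 0. The 542 lists include the 2 longest, and depth, mapping genome and genotype cannot be told apart here.

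How sharply the lists agreed on a position separates these sites further. Main summits fell within 100 bp of each other at 4 of the 14 sites called in all 9 lists, beside 19.8% of 11967 such sites outside chromosome 2. This limit was chosen after the values were seen. The 4 were the upstream Pitx1 site, the Bcas3 site, the site 30147 bp downstream of Tbx4 and the site between Hoxc11 and Hoxc10, and 3 of them held a consensus match in the printed window of 50 bases either side. Over all sites 40.2% of the sharply placed and 23.9% of the others had a match.

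The remaining limb genes were set beside the members as a list. On the hindlimb side Hoxc11 had an interval in all 6 wt lists, and Hoxc9, Hoxc12 and Hoxc13 had one in 4, 4 and 5. All 4 genes of limb outgrowth (Hand2, Sall4, Fgf10 and Ldb1) and all 4 on the forelimb side (Tbx5, Hoxc4, Hoxc5 and Hoxc6) had one. Of these genes Hand2, Ldb1, Hoxc4 and Hoxc5 also had a promoter interval in all 6 wt lists, which none of the 4 hindlimb identity genes had. The others of these genes did not have one in all 6 either. Hoxc6 had one in 4 wt lists, Sall4 in 3, Fgf10 in 2 and the forelimb reference Tbx5 in 0. Among the hindlimb identity genes Tbx4 had one in 5 wt lists, Isl1 in 4, Pitx1 in 1 and Hoxc10 in 0. Shares of all protein-coding genes called in all 6 wt lists were 83.0% with 150 kb flanks, 41.8% with 10 kb flanks (as for Hoxc genes) and 19.8% at the promoter. No difference between these small gene sets was tested. The Hoxc windows overlap and are narrower than the others, so the counts of listed genes are not independent. The overlap crosses the 2 sides, since the Hoxc5 window of 70.0 kb holds the Hoxc10 gene and the leading Hoxc10 site.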

How the data were processed

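CUT&RUN peak lists for HOXA13 and HOXD13, 1 per library, were assigned to 4 groups by sample title (wt or 542, E12.5 or E11.5, antibody). The growth protocol gives a single collection day, whereas 1 title gives E11.5. According to the study's methods, reads were trimmed with Cutadapt, mapped with bowtie2 (wt on mm10, 542 on the mutant genome), filtered on mapping quality and passed to MACS2 per sample without a control. The study's text names a step that removes duplicates while its command keeps them, and kept duplicates would raise pileups. The deposited fold enrichment is a ratio, coverage at the summit over the background that MACS2 estimated nearby, with 1 added to both. This addition lowers the ratio most where background counts are low. The −log10 p-value in the deposited lists tests this coverage under a Poisson model; the −log10 q-value is its corrected form, as the authors' lists give it, and the deposited score rescales that q-value to whole numbers.

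Summit rows that share both ends count as 1 interval. Pileup, local background and read ends per library were recovered by solving fold enrichment and −log10 p together; at least 99.98% of pileups came out whole within 0.05, and the step was tested on simulated data. Sites join intervals that overlap by at least 1 bp over the 9 lists, without chromosome 2, whose numbering differs in 542. Genes were GENCODE M21 basic. Sites named were those with a summit within 1 kb of a start, the 3 per gene in most lists (ties by median percentile of fold enrichment), and those in all 3 wt lists of 1 antibody only. Members and lists were chosen with earlier results of these data known. One entry of the list of limb genes is not reported here. Tests were exact permutation or sign-flip tests with Benjamini-Hochberg adjustment. Alternatives were thresholds, windows, ways of joining, replicates left out and a replicate block.

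Replicate numbers come from the titles. Same-numbered wt libraries were taken as pairs. They deviated together from their antibody means over 20310 merged intervals, with correlations of 0.110, 0.143 and 0.348. Only the libraries numbered 3 were each other's best match. Crossing numbers 1 and 2 gave higher values, 0.219 (number 1 for HOXA13, 2 for HOXD13) and 0.146 (number 2 for HOXA13, 1 for HOXD13). Pairing by number thus rests on the titles alone for numbers 1 and 2. Software was samtools 1.23.1 and, in Python 3.11.15, pysam 0.24.0, scipy 1.17.1, pandas 2.3.3, numpy 2.4.6 and matplotlib 3.10.9.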

Additional observations from a re-analysis of the deposited data

How the results depend on the processing

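No setting brought a test past an adjusted 0.05, but signs, sizes and counts moved. The 15 sites called in all 6 wt lists became 2 at a fold enrichment of at least 5 (1 at Pitx1, 1 at Hoxc10), 8 at a −log10 q of at least 5, 7 in the top 20000 intervals, 6 with summits joined within 200 bp, 2 with intervals joined where they share 50% of both, 3 in windows of 50 kb and 28 in windows of 300 kb; leaving out 1 library gave 15 to 19, the highest without wt HOXD13 replicate 1, and setting both replicates numbered 3 aside, chosen after seeing the data, 19. Counting every summit row leaves this count as it is. HOXA13 minus HOXD13 changed sign at Pitx1 (0.139 at the fold limit, 0.669 at the q limit), Tbx4 (-0.0698 at the q limit, -0.667 in the top 20000), Isl1 (-0.45 at the fold limit, -0.119 over summit rows, -0.167 in the top 20000) and Hoxc10 (-0.688 at the fold limit, -0.0189 over summit rows). wt minus 542 became 0.0512 at the q limit and 0.171 over summit rows. Hoxc10 minus Tbx5 became 2.05 at the fold limit, 0.682 at the q limit, 6.06 over summit rows and 1.01 in the top 20000, and Tbx4 minus Tbx5 became 0.329 with replicates 1 and 2 alone. Leaving out 1 library gave -0.432 to -0.25 at Pitx1, -0.0962 (without wt HOXD13 replicate 3) to 0.585 at Tbx4, -0.0813 (without wt HOXA13 replicate 2) to 0.339 at Isl1, where it was -0.00253 without wt HOXD13 replicate 3, 0.0142 to 0.167 at Hoxc10, and -1.09 to 0.12 (without 542 HOXA13 replicate 2) between genotypes. Against Tbx5 it gave -2.32 to -1.71 at Pitx1, -0.717 to -0.0477 at Tbx4, -6.82 to -5.50 at Isl1 and -2.02 to 0.194 (without wt HOXD13 replicate 2) at Hoxc10. Window width moved Pitx1 minus Tbx5 from -0.376 (300 kb) to -4.27 (50 kb) and Hoxc10 minus Tbx5 to -7.96 (5 kb, exact permutation p = 0.0312, adjusted 0.0938). The leading Hoxc10 site lies outside the 5 kb window, which held 0 of the sites called in all 6 wt lists. The causes of the other shifts were not tested. With the replicate block the genotype difference, over the 2 shared numbers, was -0.108 and the antibody difference at Pitx1 -0.325 (exact sign-flip permutation p = 0.25, the smallest that 3 pairs allow); it changed no call. A site missing from a list was not called there, which does not show that it was unbound.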

Other observations

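The upstream Isl1 site stood on a background of 0.107 read ends per M in wt HOXA13 replicates 1 and 2. That value is the genome-wide floor of the background estimate, the same in every library, and not a local measurement. The leading Pitx1 site stood above this floor, on 0.448 and 0.328 in the same libraries, and the leading Hoxc10 site on 0.675 and 0.420. The whole interval of the leading Pitx1 site held 2 consensus matches and that of the Hoxc10 site 2, while both recurrent Isl1 sites (1225 and 1236 bp) and the lowest-ranked recurrent Pitx1 site (1159 bp) held 0. The Pcbd2 site of chr13:55755396-55757499, named after its values were seen, held 5 over 2104 bp, and the recurrent Tbx4 sites held 1 or 2 each.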
